A study of Sus scrofa with 4 samples.

Results

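Fibronectin and the matricellular proteins were followed in dermal fibroblasts grown from wound biopsies. The members were 10 genes fixed by name, FN1, POSTN, SPARC, THBS1, THBS2, TNC, SPP1, COMP, NOV and CYR61, and 9 of them had a probeset carrying that single symbol. They stand among 6765 genes named in this way on the porcine Affymetrix array. NOV had no such probeset and was not analysed here. FN1 had 4 probesets, THBS1 had 5, POSTN, SPARC and COMP had 2 each, and the other members had 1. The probeset with the highest mean log2 signal represents its gene, and the remaining probesets are given beside it. The cultures came from shallow and deep wounds on the backs of 2 Duroc pigs, biopsied at 20 weeks. Fibroblasts were grown in serum-containing medium, and total RNA was taken at confluence. Each pig gave 1 shallow and 1 deep array, so each depth had n = 2. Wound depth was the only factor, and no treatment was given in the labels. For animal age and culture passage the sources used here give nothing, and the RNA is from cultured cells, not from scar tissue.

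Fibronectin is a large secreted glycoprotein that cells assemble into fibrils, on which collagens and growth factors are deposited. Matricellular proteins are secreted into the same matrix but mainly regulate how cells adhere to it, how collagen fibrils form and how TGF-beta is activated, and they are known for their rise in wounds and fibrotic skin. They include thrombospondins, tenascin, SPARC, periostin, osteopontin and the CCN family, and most act through integrins, syndecans and CD47 or CD36. The comparison asked whether fibroblasts from deep wounds, which heal with scar in this breed, carried more of these messengers than fibroblasts from shallow wounds of the same animal.

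The messengers of FN1, POSTN, SPARC, THBS1, THBS2 and SPP1 read higher on both deep arrays than on both shallow arrays, by a mean of 1.29-fold for SPP1 to 1.90-fold for POSTN, but under quantile normalization FN1 alone kept this order. The actin ratio of the arrays, a sign of RNA integrity, moved with depth too, and with it as a covariate FN1, SPARC and THBS1 turned lower in deep. TNC read lower in deep in both pigs, and CYR61 differed in opposite directions. None of these differences passed the test across all probesets. With the pig as a block, limma called 0 of the 8 tested members higher and 0 lower at an adjusted p under 0.05, against 0.236% of all 14399 probesets called higher and 0.104% called lower. At an unadjusted p under 0.05, 3 members were higher and 0 lower, where 6.94% and 6.92% of all probesets were. Among the 2400 brightest of these probesets, 268 were higher and 102 lower. No permutation of these arrays can give a small p: the smallest two-sided exact p is 0.333 for 2 against 2 arrays and 0.5 for 2 pairs.

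Signals are MAS5 intensity units on a linear scale. Differences are in log2, deep minus shallow, as the mean of both pigs with the standard error (SE) of the moderated fit.

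The brightest probeset of FN1, fibronectin, had a signal of 8846 in the shallow and 12445 in the deep culture of pig 1, and 9799 and 25006 in those of pig 2. The shallow arrays lay close together and both deep arrays lay above them, with the deep array of pig 2 far above the rest. The log2 difference was 0.92 ± 0.34 (limma, adjusted p = 0.282), and it was 0.49 in pig 1 and 1.35 in pig 2. The deep arrays differed from each other by 1.01, more than the mean difference between depths. Leaving out the deep array of pig 2 gave 0.42, and leaving out the shallow array of pig 1 gave 0.85. Leaving out the deep array of pig 1 gave 1.43, and the mean of all FN1 probesets, dim ones included, gave 0.15. A second tested FN1 probeset gave a like mean, 0.81 ± 0.36 (limma, adjusted p = 0.373), but spread the other way over the pigs. It read 489 and 1377 in the shallow and deep cultures of pig 1 and 743 and 811 in those of pig 2. The remaining FN1 probesets read between 2.33 and 16.5 on the 4 arrays and were left out by the filter on dim probesets.

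**Figure D1:**
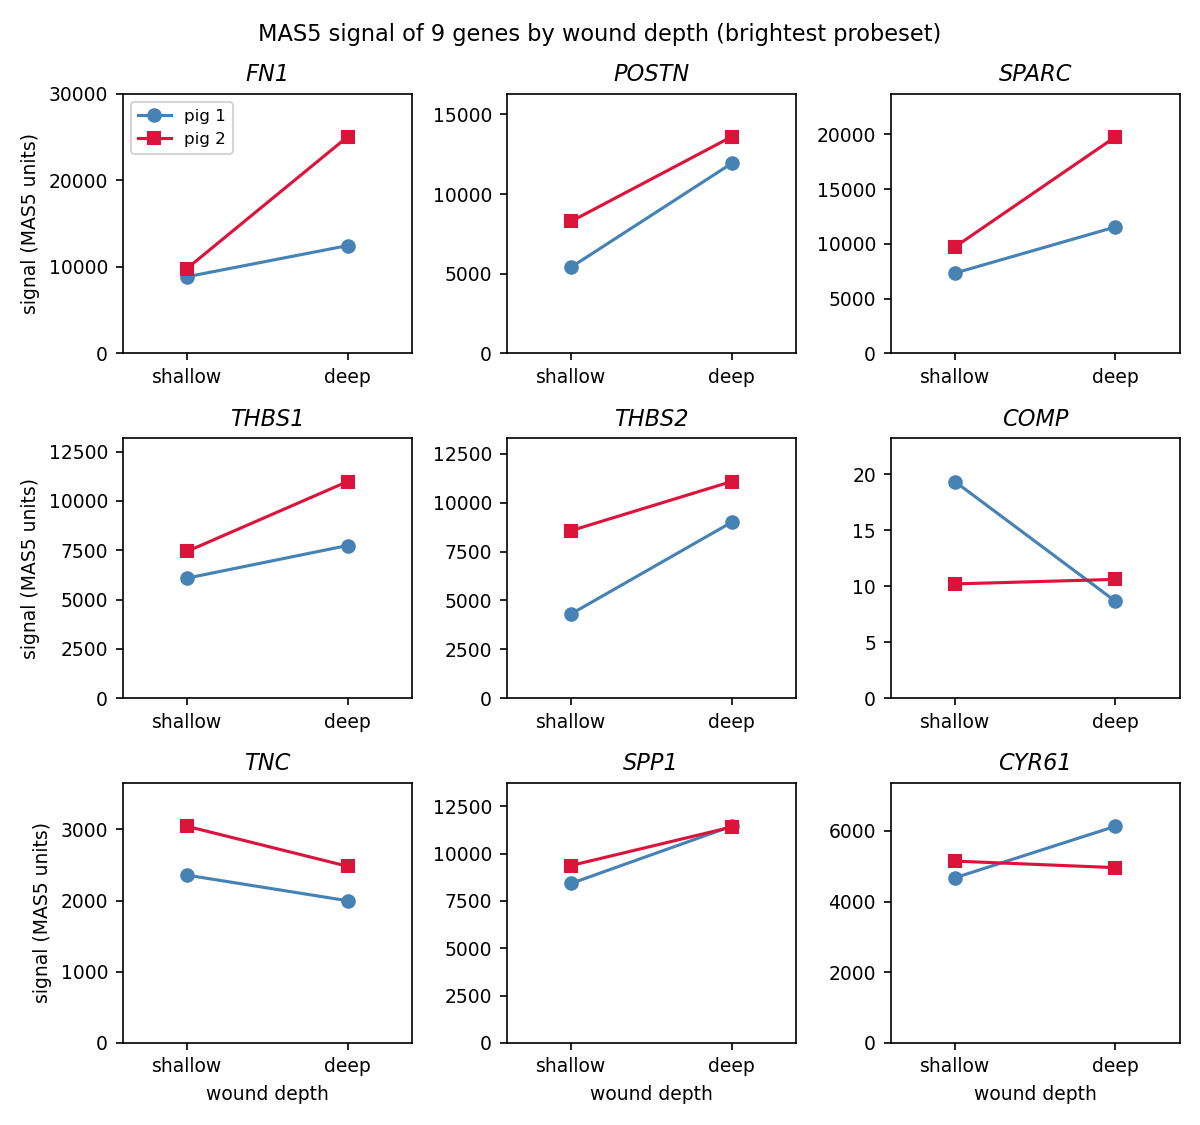
MAS5 signal (y axis, linear from 0, scaled separately in each panel) of the brightest probeset of 9 genes in shallow and deep cultures (x axis). Each line joins the arrays of 1 pig. On this deposited scale both deep points lie above both shallow points for FN1, POSTN, SPARC, THBS1, THBS2 and SPP1 (FN1 alone keeps this under quantile normalization), TNC is lower in deep along both lines, and COMP stays under 20 units.

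The thrombospondins are modular glycoproteins. THBS1 activates latent TGF-beta and, like THBS2, restrains new vessels. THBS1 read 6082 and 7738 in the shallow and deep cultures of pig 1 and 7437 and 10982 in those of pig 2. Both deep arrays were above both shallow arrays, though the deep array of pig 1 lay just above the shallow array of pig 2. The difference was 0.45 ± 0.29 (limma, adjusted p = 0.543), with a 95% interval of -0.22 to 1.13. For THBS1, the deep array of pig 2 left out gave 0.20 and that of pig 1 left out gave 0.71. Its second bright probeset, at 5179 and 8170 in pig 1 and 7354 and 8643 in pig 2, gave 0.45 ± 0.30. The 3 dimmer THBS1 probesets did not share 1 pattern. One read 56.9 and 88.3 on the shallow and 124 and 201 on the deep arrays, a difference of 1.15 ± 0.34 (limma, adjusted p = 0.193) that was nearly the same in both pigs. The other dim probesets were higher in deep by 1.46 and 1.99 in pig 1 and lower or level in pig 2, at -0.74 and -0.02.

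THBS2 also shapes collagen fibrils, and it read 4303 and 8998 in the shallow and deep cultures of pig 1 and 8568 and 11086 in those of pig 2. The shallow array of pig 1 stood apart from the other 3 arrays, and the shallow and deep groups did not overlap. The difference was 0.72 ± 0.31 (limma, adjusted p = 0.365), while the shallow arrays differed from each other by 0.99. Without the shallow array of pig 1 the THBS2 difference was 0.22, and without the shallow array of pig 2 it was 1.21. COMP, a cartilage and tendon thrombospondin also made by activated fibroblasts, was dim. Its brighter probeset read 19.3 and 10.2 on the shallow and 8.64 and 10.6 on the deep arrays. The other COMP probeset read 1.26 and 2.90 on the shallow and 13.9 and 43.3 on the deep arrays. Each COMP probeset was below the array's highest absent control on 3 of 4 arrays, so neither gives a level or a fold. Absent controls are 23 probesets for transcripts that these cells should lack, and their highest signal was 13.6 to 30.9 per array.

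TNC, tenascin-C, an anti-adhesive glycoprotein of healing wounds, was the one tested member with a mean below 0. It read 2357 and 1997 in the shallow and deep cultures of pig 1 and 3044 and 2481 in those of pig 2. Within each pig the deep array was the lower, but the groups overlapped because both arrays of pig 2 lay above their counterparts in pig 1. The log2 difference was -0.27 ± 0.27 (limma, adjusted p = 0.720), with a 95% interval of -0.88 to 0.35. For TNC, the values with 1 array left out ran from -0.45 without shallow pig 1 through -0.42 without deep pig 2 and -0.11 without deep pig 1 to -0.08 without shallow pig 2. Pig 2 was above pig 1 by 0.37 in shallow and by 0.31 in deep, each more than the depths differed.

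SPARC, a calcium-binding protein that chaperones collagen, read 7334 and 11549 in the shallow and deep cultures of pig 1 and 9717 and 19780 in those of pig 2. As for FN1, the deep array of pig 2 was the highest by a wide margin, and the groups did not overlap. The difference was 0.84 ± 0.31 (limma, adjusted p = 0.279). Leaving out the deep array of pig 2 gave 0.45, and leaving out the shallow array of pig 1 gave 0.64. The second SPARC probeset read between 1.72 and 37.0 and did not pass the filter.

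POSTN, periostin, aids the cross-linking of collagen and binds fibronectin and tenascin. Its brightest probeset read 5404 and 11923 in the shallow and deep cultures of pig 1 and 8282 and 13598 in those of pig 2. Both deep arrays were high and close together, and the shallow array of pig 1 was the lowest. POSTN had the largest mean difference among the tested members by brightest probeset, 0.93 ± 0.30 (limma, adjusted p = 0.231; 95% interval 0.23 to 1.63 before adjustment for the number of probesets). The intervals of FN1 (0.14 to 1.70) and SPARC (0.13 to 1.55) also lay above 0 before that adjustment. POSTN was at least 1.5-fold higher in deep in both pigs, as was SPARC. This made 2 of 8 members, where 6.29% of all tested probesets were. For POSTN, leaving out the deep array of pig 2 gave 0.83, and leaving out the shallow array of pig 1 gave 0.62. The mean of all POSTN probesets, the dim one included, gave 0.22. A second, dim POSTN probeset read 69.1 and 138 in pig 1 but 106 and 27.0 in pig 2, the last below that array's highest absent control.

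SPP1, osteopontin, a secreted phosphoprotein that binds integrins and CD44, read 8426 and 11452 in the shallow and deep cultures of pig 1 and 9375 and 11409 in those of pig 2. The deep arrays were nearly equal and both lay above the shallow arrays. The difference was 0.36 ± 0.30 (limma, adjusted p = 0.649; 95% interval -0.32 to 1.05). SPP1 is also a product of macrophages. The macrophage and leukocyte markers summed to 130 to 173 units on the shallow and 134 to 155 on the deep arrays over 9 genes, 4 of which were below the absent controls on every array. CYR61, the CCN protein induced by stretch and by YAP, read 4672 and 6132 in the shallow and deep cultures of pig 1 and 5146 and 4960 in those of pig 2. Its arrays overlapped, and the difference was 0.17 ± 0.29 (limma, adjusted p = 0.842; 95% interval -0.50 to 0.84). Leaving out 1 array took CYR61 from 0.017 (deep, pig 1) and 0.10 (shallow, pig 1) to 0.32 (deep, pig 2).

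**Figure D2:**
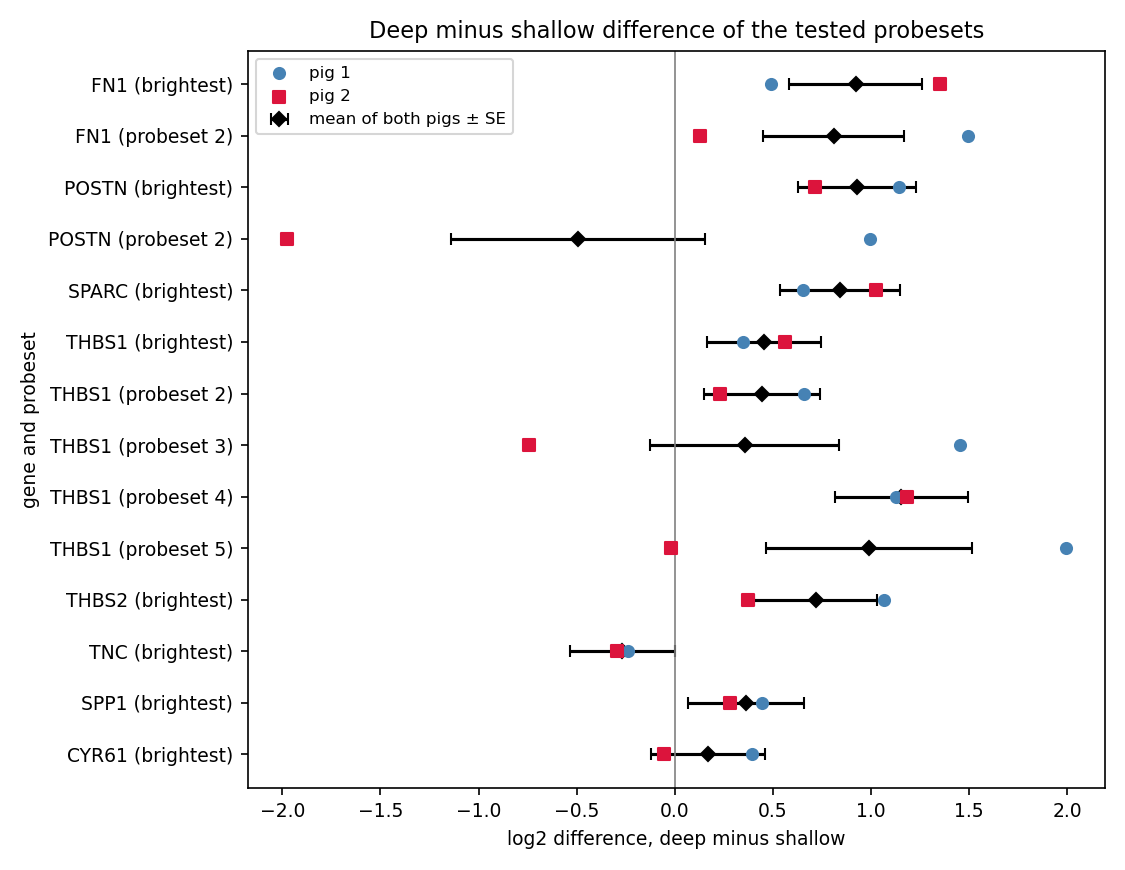
Log2 difference, deep minus shallow (x axis), of the 14 tested probesets of 8 genes (y axis), with pig 1 as circles, pig 2 as squares, and the mean of both pigs with the SE of the moderated fit. TNC lies at -0.27 with both pigs together, and the dimmer probesets of POSTN and THBS1 spread the pigs far apart.

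All 8 tested members were bright by their brightest probeset, with 1997 units or more on every array, so the filter on dim probesets did not choose between depths for them. Both deep arrays lay above both shallow arrays in 6 of the 8, where 23.2% of all tested probesets did, and lay below them in 0, where 25.5% did. Higher in deep in both pigs were 6 members against 29.8% of all tested probesets, and lower in both was 1 against 31.6%. The median difference over the 8 members was 0.59, and over all tested probesets it was -0.02. A comparison with bright probesets alone was added after the data were seen. Among the 2400 probesets at or above the 90th percentile of mean log2, 31.4% had the deep arrays above the shallow ones and the median difference was 0.05. Quantile normalization, which forces all arrays to 1 distribution of signal, took the members' median from 0.59 to -0.015. On that scale 1 member, FN1, had the deep arrays above the shallow ones, against 23.1% of all tested probesets, and 2, TNC and SPP1, had them below, against 24.4%. The signs of THBS1 (-0.11), SPP1 (-0.30) and CYR61 (-0.12) turned, while POSTN (0.33), THBS2 (0.22), FN1 (0.08) and SPARC (0.08) kept theirs.

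Array measures moved with depth. The actin 3' to 5' ratio, which rises where RNA is broken or labelled over short stretches, was 1.96 in shallow and 3.28 in deep for pig 1, and 2.41 and 6.10 for pig 2. Spiked hybridization controls, added in a fixed amount, had a geometric mean of 1145 and 1326 on the shallow and 1579 and 3880 on the deep arrays. In 5 members, FN1, POSTN, SPARC, THBS1 and THBS2, the 4 arrays ranked as their actin ratios did, which 11.8% of all tested probesets also did, and 19.8% of the bright ones. With the actin ratio as a covariate in place of the pig, the members' median was -0.031, and FN1 (-0.19), SPARC (-0.12) and THBS1 (-0.18) turned negative. That fit has 4 arrays and 1 residual degree of freedom, and the part of RNA integrity and labelling in the differences was not tested. The shallow array of pig 1 was the lowest in 7 of the 8 members. It was the lowest in 4752 of all 14399 tested probesets and in 1025 of the 2400 bright ones. It also carried epithelial markers, whose summed signal over 10 genes was 5967 there and 260 to 387 on the other arrays. Its sum over 13 cell-cycle genes was 13236, against 4217 on the shallow array of pig 2 and 1791 and 2067 on the deep arrays. The part of epithelial RNA and of cell cycling in the differences was not tested. In bulk RNA, fewer cells of a type and less RNA per cell cannot be told apart. Without this array the members' median was 0.30, and TNC was again the one tested member below 0. All 10 measured fibroblast markers were above the absent controls on every array, and they summed to 29849 and 35304 on the shallow and 49013 and 71164 on the deep arrays. Smooth muscle and pericyte markers summed to 10145 and 13809 on the shallow and 21030 and 22173 on the deep arrays over 7 genes, a list that includes ACTA2 of myofibroblasts. Most of each sum was ACTA2, at 7577 and 10478 on the shallow and 13609 and 17369 on the deep arrays. ACTG2, CNN1 and DES were also higher on both deep arrays, while TAGLN, RGS5 and MCAM overlapped between depths. Endothelial markers were below the absent controls on every array in 4 of 8 genes, with sums of 286 to 772 on the shallow and 349 to 446 on the deep arrays. Cartilage and bone markers summed to 118 to 162 on the shallow and 132 to 182 on the deep arrays over 7 genes, with SOX9 below the absent controls on every array.

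**Figure D3:**
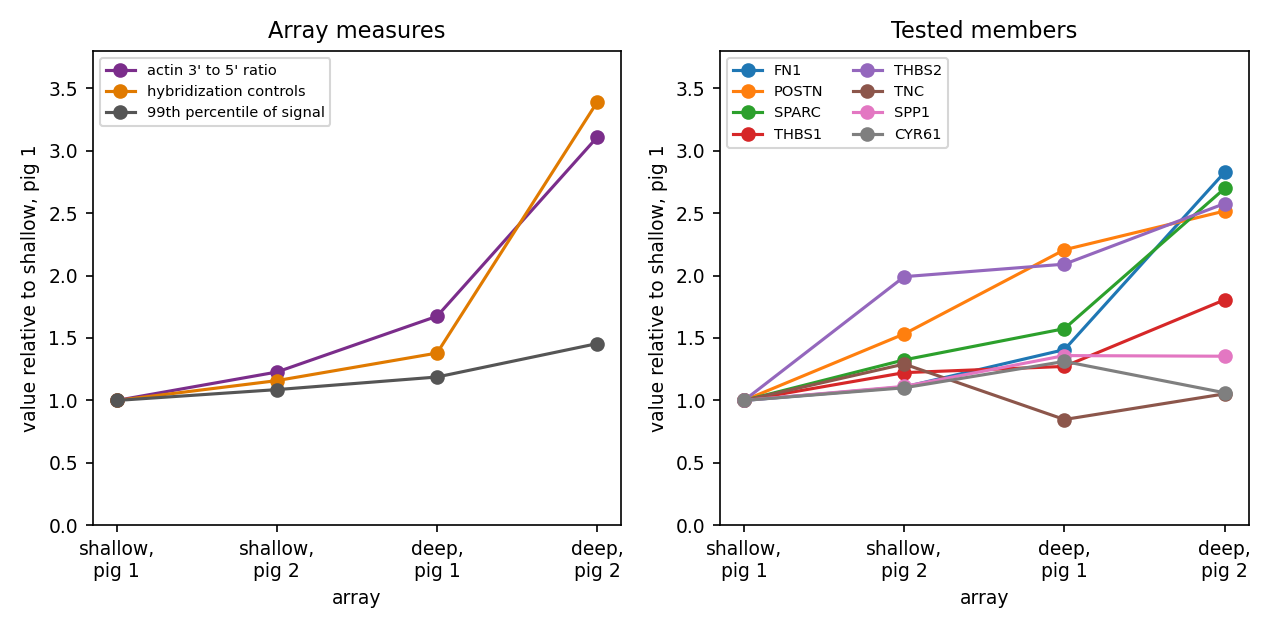
Left, the actin 3' to 5' ratio, the geometric mean of hybridization controls and the 99th percentile of signal on each array, relative to the shallow array of pig 1 (y axis, linear from 0). Right, the signal of the 8 tested members on the same scale. Arrays are ordered by their actin ratio, and lines join values of 1 measure or gene. FN1, POSTN, SPARC, THBS1 and THBS2 increase from left to right as the array measures do, and TNC, SPP1 and CYR61 do not.

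**Figure D4:**
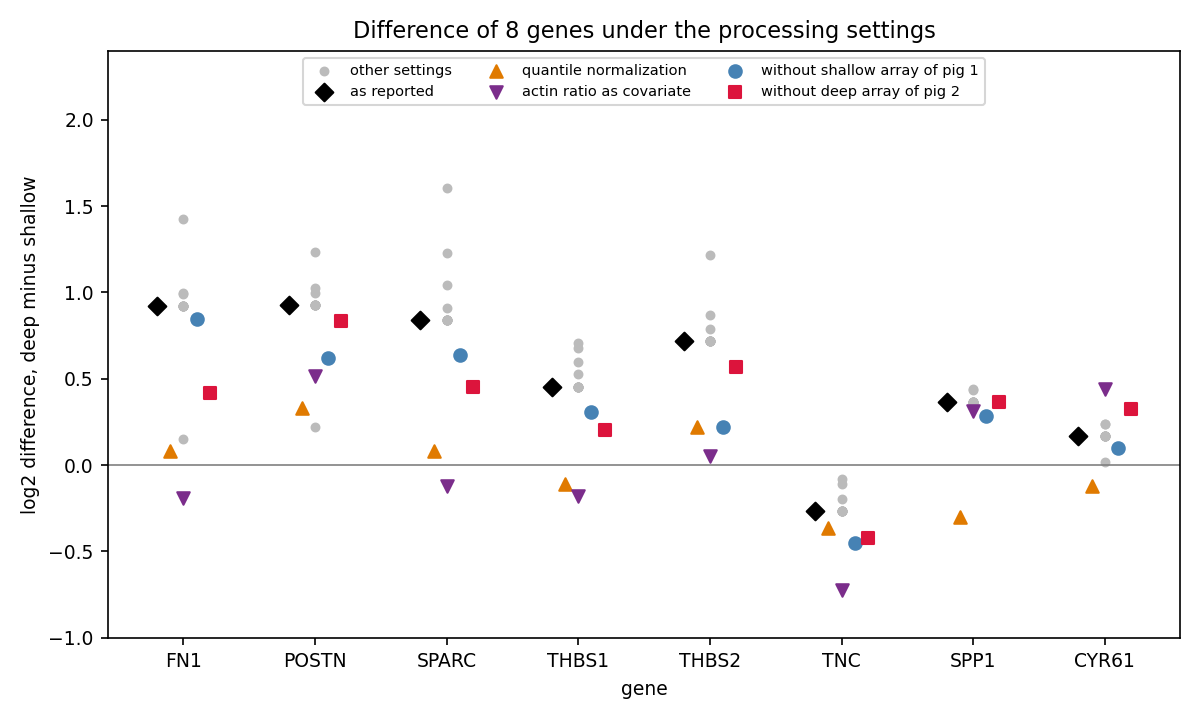
Log2 difference, deep minus shallow (y axis), of the 8 tested members (x axis) as reported and under 15 other processing settings. Quantile normalization turns THBS1, SPP1 and CYR61 below 0, the actin covariate turns FN1, SPARC and THBS1 below 0, and TNC stays below 0 throughout.

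Other genes of the same pathway were read from lists fixed by name. Relatives of the members gave 3 tested genes out of 10 on the array, and 0 passed the threshold in either direction, with 2 higher and 0 lower at an unadjusted p under 0.05 in limma (6.94% and 6.92% of all tested probesets). In all 3 the deep arrays lay above the shallow ones, as in 23.2% of all tested probesets. THBS3 had a shallow mean of 24.4, under the filter signal of 27.1, and passed the filter only through its deep arrays. With the actin ratio as covariate the relatives' median difference was 0.63, and under quantile normalization it was 1.44, against 1.38 as reported. Without the filter on dim probesets it was 0.97. EFEMP2, a fibulin of elastic fibres, read 424 and 803 on the shallow and 1548 and 1601 on the deep arrays, a difference of 1.43 ± 0.31 (limma, adjusted p = 0.0973). FBLN1, which binds fibronectin, read 281 and 528 in shallow and 872 and 1162 in deep cultures, a difference of 1.38 ± 0.28 (limma, adjusted p = 0.0894). The dim thrombospondin THBS3 differed by 1.34 ± 0.65, with 98.7 on the deep array of pig 2 and no more than 33.7 elsewhere. CTGF, the CCN relative best known in fibrosis, had no probeset with that single symbol, nor had CCN2.

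Of 12 tested receptors through which these proteins act, 0 passed in either direction. In limma 1 was higher and 0 lower at an unadjusted p under 0.05, near the 6.94% and 6.92% of all tested probesets. The deep arrays lay above the shallow ones in 5 receptors, against 23.2% of all tested probesets. The receptors' median difference was 0.38, and it was 0.017 with the actin ratio as covariate and 0.13 without the deep array of pig 2. Under quantile normalization it was 0.40. The fibronectin receptor subunit ITGA5 was dim, at 46.9 and 38.6 on the shallow and 50.5 and 87.0 on the deep arrays (0.64 ± 0.44). The syndecan SDC2, a heparan sulfate co-receptor in fibronectin assembly, read 3087 and 7640 in shallow and 8712 and 11329 in deep cultures, a difference of 1.03 ± 0.33 (limma, adjusted p = 0.228). SDC1, an epithelial syndecan, read 718 on the shallow array of pig 1 and 150 to 249 on the others (-0.68 ± 0.42).

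Genes that induce the members showed no shared direction. Among 13 tested inducers and transcription factors 0 passed, and at an unadjusted p under 0.05 in limma 3 were higher and 2 lower, where 6.94% and 6.92% of all tested probesets were. The median difference was -0.16, and it was 0.22 with the actin ratio as covariate and -0.11 under quantile normalization. Leaving out either the shallow or the deep array of pig 2 gave 0.14. Leaving out the shallow array of pig 1 gave -0.38, and leaving out its deep array gave -0.43. EGR1, an immediate-early factor that acts on several matrix promoters, read 1495 and 395 in shallow and 3609 and 1695 in deep cultures, a difference of 1.69 ± 0.30 (limma, adjusted p = 0.0741). ATF3, a stress-induced factor, read 181 and 205 in shallow and 553 and 325 in deep cultures, a difference of 1.14 ± 0.33 (limma, adjusted p = 0.189). ANKRD1, a target of YAP as CYR61 is, read 734 and 330 on the shallow and 246 and 24.5 on the deep arrays. The last value is below that array's highest absent control. With that control's signal in its place ANKRD1 was at least 10.7-fold lower in deep in pig 2, and it was 2.98-fold lower in pig 1. The mean of both pigs was at least 5.64-fold lower (limma on the measured values, adjusted p = 0.0776).

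Most genes that assemble and turn over the same matrix had a mean above 0 in deep minus shallow, 15 of the 17 tested against 48.1% of all tested probesets. Of these 0 passed in either direction. At an unadjusted p under 0.05 in limma 10 were higher and 0 lower, where 6.94% and 6.92% of all tested probesets were. Among the 2400 bright probesets, 268 were higher and 102 lower. The deep arrays lay above the shallow ones in 12 of the 17 (23.2% of all tested probesets, 31.4% of the bright ones) and below in 1 (25.5%). COL3A1, counted among the 12, had a shallow mean of 23.1, under the filter signal of 27.1. It passed the filter only through its deep arrays. The median difference was 0.89, and it was 0.32 with the actin ratio as covariate and 0.69 under quantile normalization. The largest differences were those of MMP3, a stromelysin, at 2.14 ± 0.63 (limma, adjusted p = 0.191), and TIMP2, which inhibits metalloproteinases, at 1.43 ± 0.28 (limma, adjusted p = 0.0854). MMP3 read 2772 and 953 in shallow and 4081 and 12553 in deep cultures. Its pigs were far apart, with a log2 difference of 0.56 in pig 1 and 3.72 in pig 2. TIMP2 read 1736 and 3314 in shallow and 5383 and 7768 in deep cultures. COL5A2, a fibril-nucleating collagen, read 150 and 202 in shallow and 418 and 422 in deep cultures, a difference of 1.27 ± 0.30 (limma, adjusted p = 0.123). These lists were fixed by name with earlier results of the same arrays known, and their counts are descriptions.

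**Figure D5:**
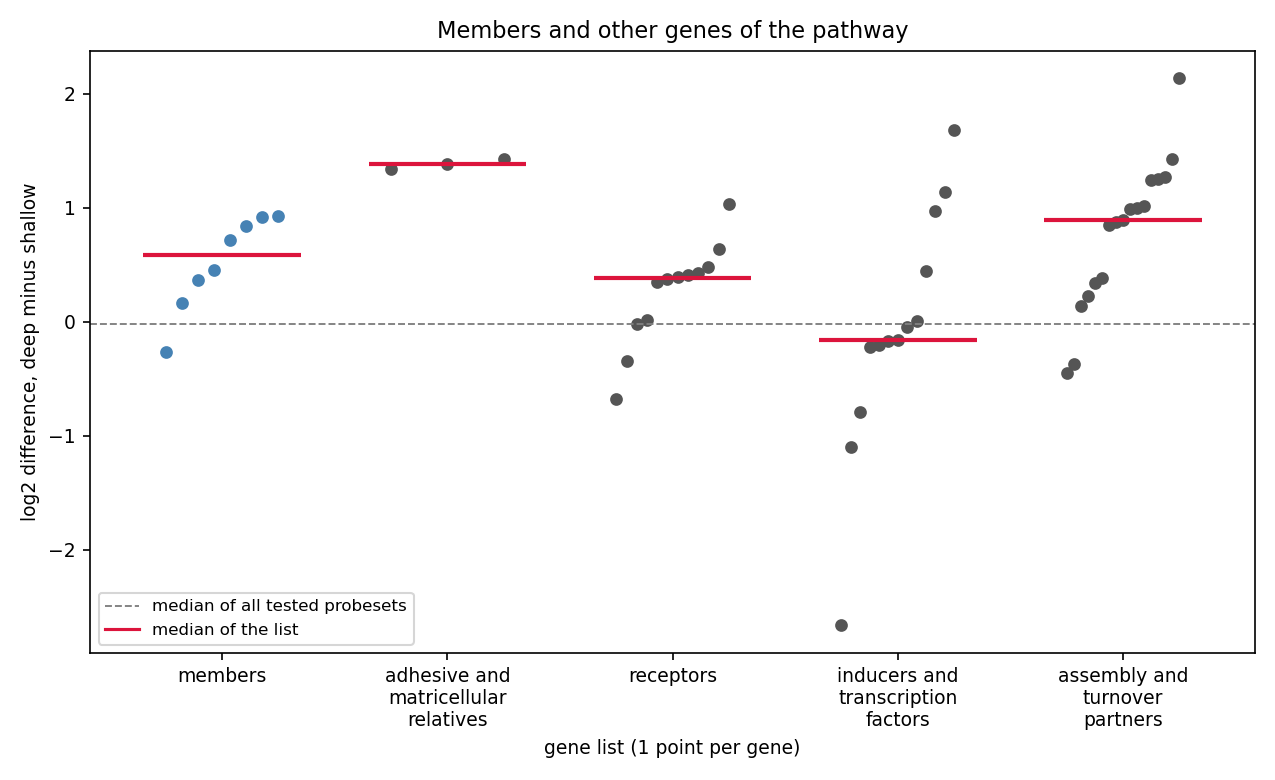
Log2 difference, deep minus shallow (y axis), for the 8 tested members and the tested genes of 4 pathway lists, 1 point per gene at its brightest probeset. Red bars are list medians and the dashed line is the median of all tested probesets at -0.02. Members, relatives, receptors and assembly partners have medians above it, and inducers a median of -0.16.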

How the data were processed

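RNA of 4 cultures was hybridized to 4 arrays. The authors deposited signal intensities on a linear scale; the submitters' processing notes name MAS5 and GCOS 1.0. Scaling target, scan settings and detection calls are not given in the sources used here. Without the top and bottom 2% of probesets, the mean was 250.1 on every array, so the arrays had been scaled to a common level. Scaling of that kind leaves a wider spread of bright signals in place, which bears on bright genes such as these.

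The 124 control probesets were left out, and signals under 1 were set to 1 (2547 of 95996 values) before log2. A filter at the 40th percentile of mean log2, which equals a signal of 27.1, kept 14399 of 23999 probesets. Symbols came from the platform annotation: 10069 probesets carried 1 symbol, 198 several and 13732 none. CCN1 would count as CYR61 and CCN3 as NOV. The comparison of depths used limma 3.58.1 (lmFit, eBayes with trend; R 4.3.3) and took the pig as a block. P-values were adjusted by Benjamini-Hochberg over all tested probesets. With the block 1 residual degree of freedom remains; moderation added 6.88, an estimate that such a design fixes only loosely. Precision is limited by the number of arrays.

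Per the series' design text, both depths were wounded on each animal. Sample titles give the number of the partner sample, and the numbering was read as the order listed. Across probesets, the deviations of a pig's 2 arrays from the means of their depths correlated at -0.01. The members, lists, tests and alternatives were chosen with earlier results of these data known. Named genes were every member with all its probesets, and in each of 4 pathway lists every gene past the threshold and the 3 with the largest absolute difference. Markers of 7 cell types or states were read as summed signals. No set test was run.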

Additional observations from a re-analysis of the deposited data

Results flagged for a closer look

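Among the tested member probesets and the named genes of the pathway lists, those whose deep minus shallow difference had opposite signs in the pigs were singled out. Over all tested list genes, signs were opposite in 0 of 3 relatives, 5 of 12 receptors, 5 of 13 inducers and 3 of 17 assembly partners. The same held for 5554 of all 14399 tested probesets. Each pig gives 1 pair, so the difference between pigs was not tested. For the brightest probeset of CYR61 the log2 difference was 0.39 in pig 1 and -0.05 in pig 2, which is -0.45 for pig 2 minus pig 1. For the dim POSTN probeset it was 1.00 and -1.98 (-2.97). In pig 2 the deep signal was below the highest absent control of that array, and with that control in its place the values were 1.00 and -1.78 (-2.78). For the dim THBS1 probesets it was 1.46 and -0.74 (-2.20) in one and 1.99 and -0.02 (-2.01) in the other. For the syndecan SDC1 it was -1.53 in pig 1 and 0.17 in pig 2 (1.70), with the high value on the shallow array of pig 1 that also carried the epithelial markers.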

How the results depend on the processing

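In limma 0 members were called under the alternatives that kept every array. Over all 15 alternatives, 114 of 120 member values kept their direction. Changing only the filter, the block, its pairing or the trend could not change a member's mean difference. Values from those settings kept their direction by construction and do not test it. Of the 6 that reversed, FN1 (-0.19), SPARC (-0.12) and THBS1 (-0.18) did so with the actin ratio as covariate and no block. THBS1 (-0.11), SPP1 (-0.30) and CYR61 (-0.12) reversed under quantile normalization. The median over members, 0.59 as reported, was 0.45 without the filter, where COMP enters at -0.55, -0.015 under quantile normalization, 0.66 with arrays centred on the median, 0.585 with log2(signal + 16), 0.29 with the mean of all probesets of a gene and -0.031 with the actin covariate. It lay between 0.30 and 0.80 with 1 array left out. Quantile normalization left 1 member with both deep arrays above and 2 with both below. The mean of all probesets of a gene left 4 above and median centring left 7 above, each with 0 below. With 1 array left out these counts ran from 6 to 7 and from 0 to 1. Pathway genes called, 0 as reported, were 2 relatives, 2 inducers and 2 assembly partners with the filter at the 60th percentile. In that fit 217 of all 9600 tested probesets were called. With the filter at the 90th percentile, added after seeing the data, the pathway counts were 1, 1 and 3, beside 104 of all 2400. With the crossed pairing as the replicate block they were 1 relative and 1 assembly partner, beside 202 of all 14399. Fits without 1 array have no block and assume that a lone array varies like the others. No counts of calls are given for them. All probesets called numbered 49 as reported, 0 without the replicate block (smallest member adjusted p = 0.300), 0 without the filter, 217 and 104 with the stricter filters, 202 with the crossed pairing, 5 with median centring, 3 without the trend, 18 with probeset means and 0 with the actin covariate. The cause of these changes was not tested. Signals over the absent controls were ample for the 8 tested members and too low for COMP.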
